A study of Homo sapiens with 32 samples.

Results

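The miRNA hairpins mir-451a and mir-144 were followed across 8 clones of 293T cells, an established line of human embryonic kidney origin that expresses SV40 large T antigen. Both were found by name in the deposited table, as 2 of its 1513 miRNA rows. The study asked how miRNA levels depend on the contact between DGCR8 and ERH. Clones 52, 55, 57 and 67 were wild type, and clones 30, 34, 42 and 43 carried DGCR8 delta103-126Q, a deletion made by prime editing that takes out the reported ERH binding site. Every clone was transfected transiently and separately with a pair of control shRNA vectors (1 and 2) and a pair of ERH shRNA vectors (1 and 2). Puromycin at 2 µg/ml was added from 24 h, and cells with the vector's fluorescent marker were sorted on day 5. All groups shared 293T as parent line, transfection, puromycin and culture in RPMI with 7.5% FCS. Each clone is a line grown from 1 cell, so the 4 clones of a genotype stand for that genotype and 1 clone can carry changes of its own. ERH mRNA, ERH protein and the edit itself were not analysed here, so whether the targeted genes bear out the labels is not known.

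In the nucleus, miRNA hairpins are released from primary transcripts by the Microprocessor, a complex of the nuclease DROSHA and the RNA-binding protein DGCR8. ERH is a small nuclear protein that binds DGCR8. The hairpin of miR-451a is a poor Microprocessor substrate because its stem is short, and cutting is known to improve when a better hairpin such as mir-144 lies in the same transcript, a process called cluster assistance. After export, pre-miR-451a is also unusual in bypassing Dicer: it is cut by AGO2. Both miRNAs come from a transcript that red blood cell precursors make at high levels under the control of GATA1. miR-144-3p, made from the 3' arm of its hairpin, is processed by Dicer in the usual way.

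In GENCODE release 29 (GRCh38) the hairpin genes lie on the minus strand of chromosome 17, within the span of the lincRNA gene AC024267.1 (chr17:28861072-28861966). MIR4732 (chr17:28861655-28861730) comes first in the direction of transcription, MIR144 (chr17:28861533-28861618) follows after 36 bases, and MIR451A (chr17:28861369-28861440) follows after another 92 bases. MIR451B (chr17:28861371-28861438) lies on the opposite strand within MIR451A. Its row mir-451b held 3 counts in 1 library (clone 55, control shRNA 1) and 0 counts in the others. MIR4732 was not analysed here. No source used here says whether the counts rest on this annotation.

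The helper's sequences are shown because its hairpin holds both mature arms that the single mir-144 row counts together; they are RefSeq's, on GRCh38.p14. In the hairpin the capitals mark the 5p arm (bases 15 to 36) and the 3p arm (bases 52 to 71), which are separated by a loop of 15 bases. In the mature sequences the capitals mark the seed, bases 2 to 8, which pairs with target mRNAs.
mir-144 hairpin: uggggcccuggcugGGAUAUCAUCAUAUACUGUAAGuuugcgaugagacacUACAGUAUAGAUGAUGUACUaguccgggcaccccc
hsa-miR-144-3p: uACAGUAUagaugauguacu
hsa-miR-144-5p: gGAUAUCAucauauacuguaag
No other of the 2370 mature names in the RefSeq table had the same bases 2 to 8 as either arm. Bases 2 to 7 of miR-144-3p were shared by 1 other, hsa-miR-101-3p, whose row mir-101 held 1539284 counts over all libraries. Of the 2 rows, mir-144 was matched in that table, and mir-451a is given by name.

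Both hairpins were rare. Over all 32 libraries mir-451a had 709 counts and ranked 388th of the 1284 rows with any count, and mir-144 had 450 counts and ranked 438th. A library held between 0 and 112 reads of mir-451a (median 16) and between 0 and 35 of mir-144 (median 13), out of 1318923 to 6222790 miRNA reads. Counts under 10 made up 11 of the 32 libraries for mir-451a and 10 for mir-144. At these counts the exact Poisson interval of a single library is wide: 8 reads of mir-451a (clone 52, ERH shRNA 1) carry a 95% interval of 3.45 to 15.8 reads. The intervals cover counting error only, since amplification copies may be among the reads.

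Raw counts of mir-451a in wild-type clones are given with the control vectors first (1, then 2) and the ERH vectors after them (1, then 2). Clone 52 had 37, 39, 8 and 15 reads, and clone 55 had 40, 20, 21 and 10. Clone 57 had 6, 16, 8 and 20 reads, and clone 67 had 8, 32, 29 and 4. Among these clones both ERH libraries were below both control libraries in reads in clone 52. Library depth differed, however. CPM is the count relative to library depth after TMM scaling, which centres the bulk of miRNA rows. In CPM both ERH libraries were below both control libraries in clones 52, 55 and 57 and not in clone 67. In clone 55 this rested on the scaling, with 9.32 CPM under ERH shRNA 1 against 10.2 CPM under control shRNA 2. Relative to depth alone the ERH shRNA 1 library was not the lower one (21 of 2241824 miRNA reads against 20 of 2461505).

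In the deletion clones, in the same order, clone 30 had 16, 25, 0 and 16 reads of mir-451a and clone 34 had 112, 47, 11 and 8. Clone 42 had 34, 38, 41 and 9 reads, and clone 43 had 7, 9, 14 and 9. Clone 34 was high in reads under both control vectors and low under both ERH vectors, and clone 43 was low throughout. In CPM clone 34 stood apart only under control shRNA 1 (41.1 CPM). Under control shRNA 2 it had 15.4 CPM, where clone 52 had 17.9 CPM. The count of 0 in clone 30 allows up to 3 counts, or 1.60 CPM. In CPM both ERH libraries were below both control libraries in clones 30 and 34, which makes 5 of the 8 clones in all. In clone 30 this too rested on the scaling, with 6.66 CPM under ERH shRNA 2 against 6.69 CPM under control shRNA 1. Relative to depth alone the ERH shRNA 2 library was higher (16 of 2109181 miRNA reads against 16 of 2612596). In clone 43 both ERH libraries were above both control libraries, and the arms overlapped in clones 42 and 67.

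Raw counts of mir-144 in wild-type clones, again in the order control 1, control 2, ERH 1 and ERH 2, were 14, 35, 16 and 3 in clone 52 and 12, 12, 17 and 7 in clone 55. Clone 57 had 3, 9, 7 and 23 reads, and clone 67 had 9, 2, 23 and 21. Clone 67 thus had more reads of mir-144 in both ERH libraries than in either control library, the opposite of clone 52 under the second vectors.

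In the deletion clones, mir-144 had 12, 20, 19 and 16 reads in clone 30 and 23, 34, 13 and 6 in clone 34. Clone 42 had 13, 12, 16 and 11 reads, and clone 43 had 7, 17, 18 and 0. The 0 allows up to 3 counts, or 1.17 CPM. In CPM both ERH libraries of mir-144 were below both control libraries in 2 of the 8 clones (52 and 34) and above both in 1 (67), and the arms overlapped in 5. In clone 52 this rested on the TMM scaling. Relative to depth alone its ERH shRNA 1 library (16 of 2122407 miRNA reads) was above its control shRNA 1 library (14 of 2050637).

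**Figure D1:**
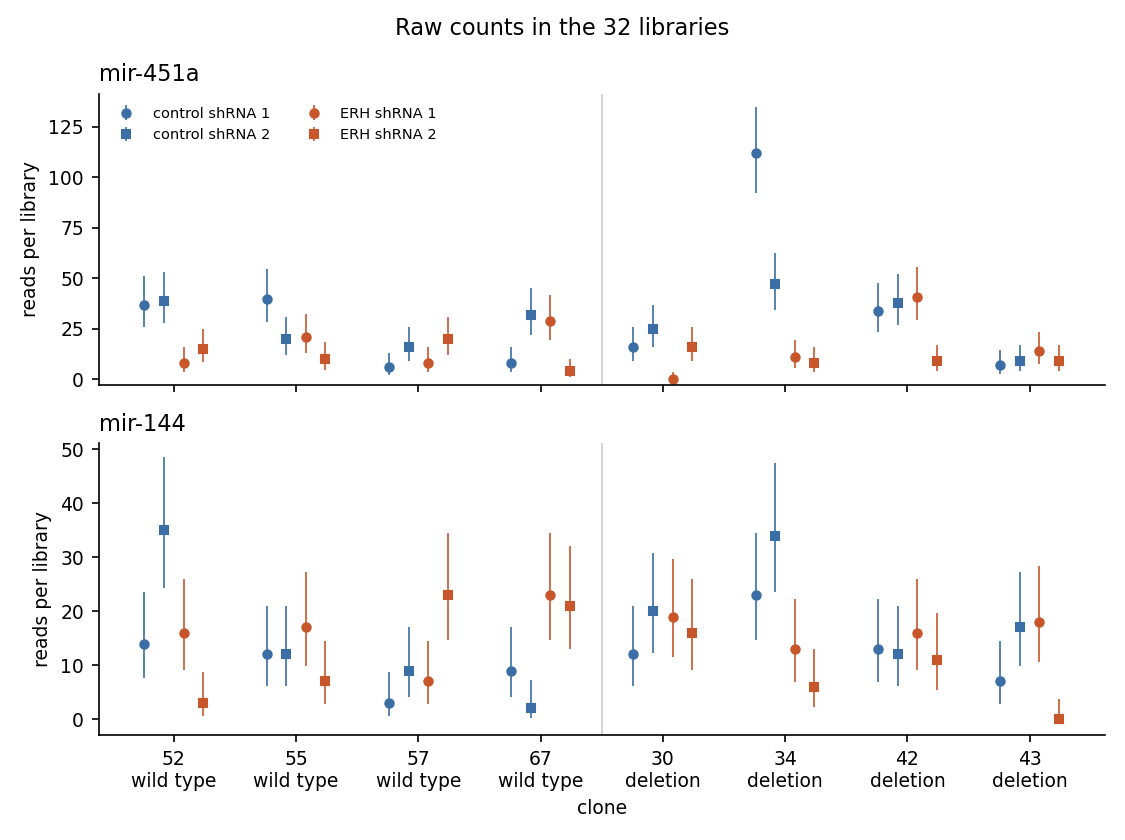
Reads per library (vertical axis) of mir-451a (top) and mir-144 (bottom) in each clone, with 1 point per shRNA vector and exact 95% Poisson intervals. Reads of mir-451a reach 112 in clone 34 under control shRNA 1, and reads of mir-144 do not exceed 35.

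The 2 vectors of an arm often disagreed beyond counting error for mir-451a. In 4 of the 16 pairs of libraries from the same clone and arm, the intervals of its CPM did not overlap, against 1 of 16 pairs for mir-144. Counts of the 2 vectors were therefore summed per clone, so that the clone is the replicate. Levels below are CPM of these sums after TMM scaling, a scaling that centres the bulk of miRNA rows.

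The mean level of mir-451a in wild-type clones was 13.6 CPM ± 4.85 (SD, n = 4) with control shRNAs and 5.72 CPM ± 2.00 (SD, n = 4) with ERH shRNAs. The deletion clones averaged 13.7 CPM ± 10.9 (SD, n = 4) with control shRNAs, the widest spread of the groups, and 5.18 CPM ± 3.31 (SD, n = 4) with ERH shRNAs. The order thus followed the shRNA arm: the genotypes differed by less than their spread within either arm. Wild-type clones ran from 8.16 to 19.0 CPM with control shRNAs and from 3.41 to 8.30 CPM with ERH shRNAs, so the ranges overlapped slightly at their ends. Deletion clones ran from 2.66 to 27.9 CPM and from 3.21 to 10.1 CPM, and these ranges overlapped broadly. Clone 34 alone supplied 159 of the 288 control counts of the deletion clones, 112 of them from its control shRNA 1 library.

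With control shRNAs mir-144 stood at 6.55 CPM ± 4.03 (SD, n = 4) where DGCR8 was wild type and at 6.49 CPM ± 2.54 (SD, n = 4) where it was deleted. With ERH shRNAs the values were 5.54 CPM ± 1.72 and 4.89 CPM ± 2.31 in the same order. All 4 group means lay within 1 SD of each other, and the ranges of all groups overlapped.

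**Figure D2:**
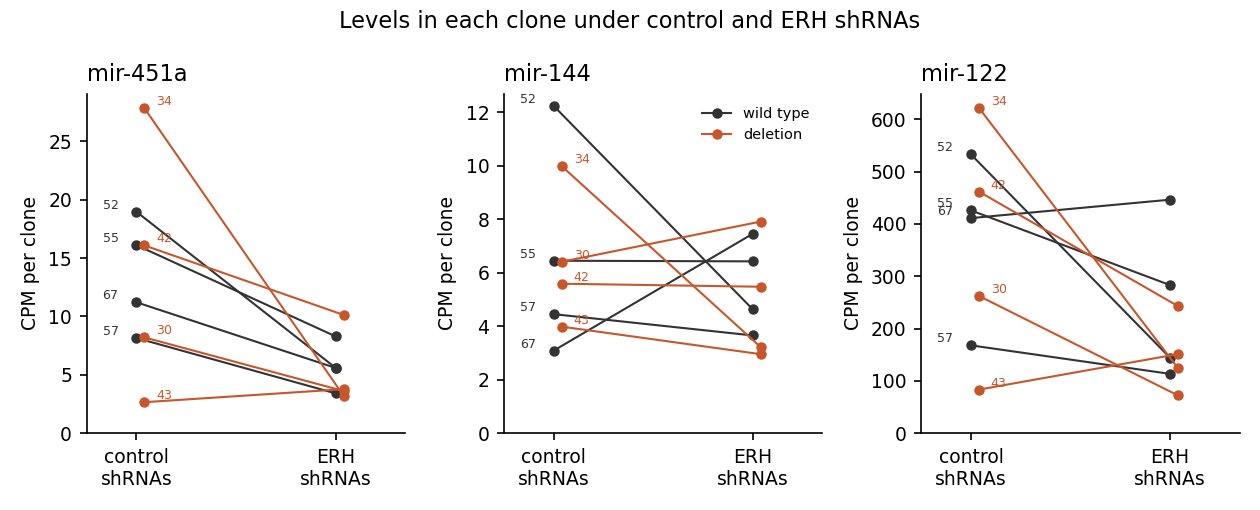
CPM (vertical axis) of mir-451a, mir-144 and mir-122 in each clone under control and ERH shRNAs, with 1 line per clone labelled at its control value, black for wild type and orange for the deletion. The mir-451a lines fall except in clone 43 (2.66 to 3.77 CPM), the mir-144 lines go both ways, and the mir-122 lines fall except in clones 43 and 67.

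ERH knockdown lowered mir-451a over all clones. Its log2 fold change was -1.20 ± 0.29 (SE), a level 0.435 times that with control shRNAs, with an adjusted p of 0.00258 by edgeR's quasi-likelihood test with clone as a block and Benjamini-Hochberg adjustment. The level was lower in 7 of 8 clones: the change in log2 CPM ran from -0.65 in clone 42 to -2.96 in clone 34 among these, and clone 43 rose by 0.45. For mir-144 the log2 fold change was -0.29 ± 0.30 (SE, 95% interval -0.91 to 0.32, adjusted p = 0.458 by the same edgeR test). It was lower in 6 of 8 clones, with the largest differences in opposite directions: -1.52 in clone 34 and 1.17 in clone 67. So 1 of the 2 hairpins fell, in a comparison in which 244 of 667 tested rows (36.6%) passed in either direction and 110 (16.5%) fell, and the median change over all rows was 0.06. The change of mir-451a was at the 3.75th percentile of all rows, that of mir-144 at the 25.6th. With the spike-in RNAs as the scale the median of all rows moved to 0.52, 91.4% of the calls were higher in place of 54.9%, and mir-451a had a log2 fold change of -0.72 (adjusted p = 0.117 by edgeR), which did not pass, while mir-144 changed sign (0.15). Relative to the median of all rows the change of mir-451a was -1.26 with TMM, -1.23 with spike-in and -1.25 with total miRNA scaling.

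Within wild-type clones the fall of mir-451a was -1.21 ± 0.34 (SE) on the log2 scale, with an adjusted p of 0.0116 by edgeR, and all 4 clones were lower, by -0.92 to -1.69. In this comparison 192 of 613 rows (31.3%) passed and 64 (10.4%) fell. For mir-144 the value was -0.11 ± 0.46 (SE, 95% interval -1.08 to 0.85), and clone 67 was higher while the other three were lower. The call for mir-451a was lost without clone 52 (-0.96, adjusted p = 0.0653 by edgeR), without the clone block (-1.22, adjusted p = 0.0630) and with spike-in scaling (-0.60, adjusted p = 0.299).

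Within deletion clones the log2 fold change of mir-451a was nearly the same, -1.18 ± 0.46 (SE, 95% interval -2.20 to -0.16), but its adjusted p was 0.115 by edgeR and it did not pass. Fewer rows passed here in all, 65 of 633 (10.3%). The clones disagreed: clone 34 changed by -2.96, clone 30 by -1.10, clone 42 by -0.65 and clone 43 by 0.45. Without clone 34 the value was -0.52 (adjusted p = 0.328 by edgeR), and without clone 43 it was -1.64 (adjusted p = 0.00150). In the same clones mir-144 gave a value of -0.45 ± 0.37 (SE), and by edgeR its adjusted p was 0.444.

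The interaction, which asks whether the knockdown acted differently in deletion clones, gave 0.12 ± 0.59 (SE, 95% interval -1.15 to 1.38, adjusted p = 0.953 by edgeR) for mir-451a and -0.26 ± 0.60 (SE, 95% interval -1.54 to 1.02, adjusted p = 0.858) for mir-144. A difference between the genotypes of up to about 1 log2 unit in either direction lies within these intervals. Over all rows 0 of 667 (0%) passed by edgeR, with 127 at an unadjusted p under 0.05 and 14 passing by DESeq2.

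For the DGCR8 deletion by itself no difference beyond the error was seen in either hairpin. Under control shRNAs the log2 difference, deletion minus wild type, was -0.03 ± 0.55 (SE, 95% interval -1.22 to 1.16, adjusted p = 0.977 by edgeR) for mir-451a and -0.06 ± 0.47 (SE, 95% interval -1.08 to 0.97, adjusted p = 0.948) for mir-144. Neither passed, while 139 of 536 rows (25.9%) did. The intervals still hold a change of 2-fold in both directions for mir-451a. The value for mir-451a rested on clone 34: without it the difference was -0.63 (adjusted p = 0.435 by edgeR), and without clone 43 it was 0.32. With spike-in scaling both values changed sign (0.35 and 0.40), and neither passed.

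Under ERH shRNAs the difference between genotypes was -0.11 ± 0.45 (SE, adjusted p = 0.911 by edgeR) for mir-451a and -0.17 ± 0.41 (SE, adjusted p = 0.858) for mir-144. No row of 569 (0%) passed by edgeR in this comparison, 87 had an unadjusted p under 0.05, and 8 passed by DESeq2. Without clone 42, the highest of the group at 10.1 CPM, the value for mir-451a was -0.71 (adjusted p = 0.454 by edgeR).

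Deletion clones with ERH shRNAs were also set against wild-type clones with control shRNAs; these control sums enter the comparisons above as well. mir-451a was lower by a log2 fold change of -1.31 ± 0.45 (SE), with an adjusted p of 0.0307 by edgeR, and mir-144 differed by -0.37 ± 0.51 (SE, adjusted p = 0.563). Here 259 of 553 rows (46.8%) passed and 91 (16.5%) fell. The call for mir-451a was lost when clone 30, 34, 43, 52 or 55 was left out, with adjusted p-values of 0.0681, 0.0984, 0.0760, 0.0934 and 0.0622. It was also lost with spike-in scaling (-0.81, adjusted p = 0.199 by edgeR) and with total miRNA counts as the scale (-0.82, adjusted p = 0.167).

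The vector pairs, which share no libraries, were also compared singly. ERH shRNA 1 against control shRNA 1 gave -1.19 ± 0.51 (SE, adjusted p = 0.0857 by edgeR) for mir-451a and 0.15 ± 0.35 (SE, adjusted p = 0.753) for mir-144, with 166 of 586 rows (28.3%) passing. ERH shRNA 2 against control shRNA 2 gave -1.32 ± 0.36 (SE, adjusted p = 0.0123 by edgeR) for mir-451a and -0.82 ± 0.56 (SE, adjusted p = 0.311) for mir-144, with 117 of 582 rows (20.1%) passing and 40 (6.87%) falling. The fall of mir-451a was thus of like size with either vector and passed with the second, while mir-144 had values of opposite sign. With spike-in scaling the second vectors gave -1.06 (adjusted p = 0.0522 by edgeR), which did not pass. With the first vectors mir-451a passed without clone 43 (-1.46, adjusted p = 0.0415 by edgeR) or without clone 67 (-1.45, adjusted p = 0.0473). As background, control shRNA 2 against control shRNA 1 gave -0.08 ± 0.31 (SE) for mir-451a and 0.29 ± 0.38 (SE) for mir-144. None of 571 rows (0%) passed by edgeR between the control vectors, 48 had an unadjusted p under 0.05, and 1 passed by DESeq2.

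**Figure D3:**
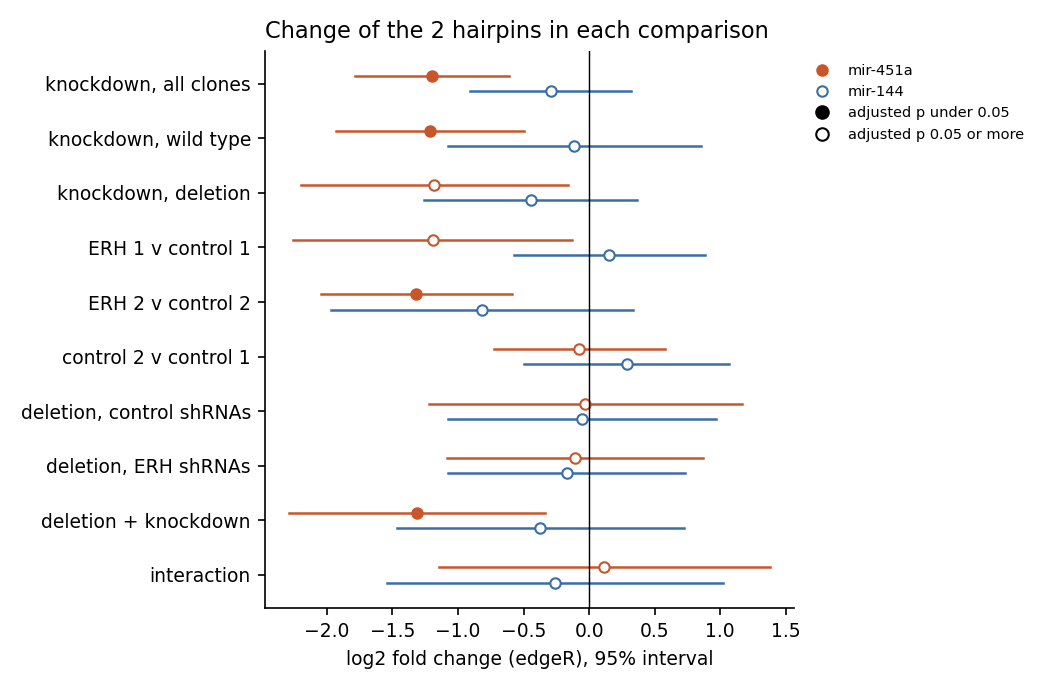
Log2 fold change (horizontal axis) of mir-451a and mir-144 in 10 comparisons, with 95% intervals, and filled points where the adjusted p was under 0.05. For mir-451a the knockdown values over summed vectors (all, wild-type and deletion clones) lie between -1.18 and -1.21, and the single-vector values are -1.19 and -1.32, while every interval of mir-144 includes 0.

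A ratio of both rows in the same library needs no scaling, and it asks directly whether the assisted hairpin changed relative to its helper. It compares read counts that are not corrected for ligation bias, so only its changes are read. Under control shRNAs mir-451a supplied 486 of the pair's 720 reads, 67.5% (exact 95% interval 63.9% to 70.9%). Under ERH shRNAs it supplied 223 of 439 reads, 50.8% (46.0% to 55.6%). These intervals take the pooled reads as independent draws and leave out the spread between clones and libraries, so they are no test of the change. Pooled over clones, the wild type had shares of 67.3% and 49.6% and the deletion 67.6% and 52.2%. Clone 34 supplied 159 of the 288 control reads of mir-451a in the deletion clones, 112 of them in its control shRNA 1 library, so the values per clone follow.

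Per clone, the share of mir-451a went from 60.8% to 54.8% in clone 52 and from 71.4% to 56.4% in clone 55. It went from 64.7% to 48.3% in clone 57 and from 78.4% to 42.9% in clone 67. Among deletion clones it went from 56.2% to 31.4% in clone 30, from 73.6% to 50.0% in clone 34 and from 74.2% to 64.9% in clone 42. Clone 43 went the other way, from 40.0% to 56.1%. Under ERH shRNAs it had 14 reads of mir-451a and 18 of mir-144 with the first vector, and 9 and 0 with the second. Clone 30 had 0 and 19 with the first ERH vector, and 16 and 16 with the second. The exact 95% intervals of the arms did not overlap in clones 67 and 34, and overlapped in the other six. In both clones this came from 1 pair of vectors. Reads of mir-451a and mir-144 in clone 67 went from 8 and 9 to 29 and 23 with the first vectors, a rise in share. With the second vectors they went from 32 and 2 to 4 and 21. In clone 34 they went from 112 and 23 to 11 and 13 with the first vectors, and from 47 and 34 to 8 and 6 with the second.

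On the log2 scale, with 0.5 counts added to each row, the ratio in wild-type clones was 1.15 ± 0.53 (SD, n = 4) under control and 0.03 ± 0.35 under ERH shRNAs. In deletion clones it was 0.69 ± 1.00 (SD, n = 4) and 0.03 ± 0.84. The mean change within clones was -0.89 ± 0.93 (SD, n = 8), lower in 7 of 8 clones, with an exact two-sided sign-flip permutation p of 0.0312. Adjusted over the 6 ratio tests by Benjamini-Hochberg, this p was 0.188, which did not pass. The change was -1.12 ± 0.79 (SD) in the 4 wild-type clones and -0.66 ± 1.12 (SD) in the 4 deletion clones, and the difference of 0.46 between genotypes had an exact permutation p of 0.6. With the first pair of vectors the mean change was -1.56 (exact p = 0.0391), and with the second it was -0.29 (exact p = 0.727). Each of these means includes a library with 0 reads, where the ratio rests on the 0.5 counts added. With ERH shRNA 1 clone 30 had 0 reads of mir-451a and 19 of mir-144. With ERH shRNA 2 clone 43 had 9 reads of mir-451a and 0 of mir-144. These means therefore cannot show a difference between the vectors, which was not tested.

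The ratio differed between genotypes by -0.46 under control shRNAs (exact permutation p = 0.457) and by -0.002 under ERH shRNAs (exact p = 1.00). The combined state against wild type with control shRNAs differed by -1.12 (exact p = 0.0857), where 4 against 4 clones can reach 0.0286. The control vectors differed by -0.12 (exact p = 0.906).

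Other hairpins reported as assisted by a neighbour were set beside the pair: mir-15a and mir-15b, each with mir-16, and mir-181b with mir-181a. These hairpins are far more abundant, with mir-15a at 3190 CPM ± 918 (SD, n = 4) in wild-type clones with control shRNAs. They were listed because earlier work names them, and with earlier results of these data known, so their direction is no independent evidence. Under knockdown in all clones all 3 assisted rows fell, with log2 fold changes of -1.75 ± 0.13 (SE) for mir-15a, -1.04 ± 0.12 for mir-15b and -1.33 ± 0.11 for mir-181b, and a list median of -1.33 beside 0.06 for all rows, of which 16.5% fell. The size of the mir-451a change lay among theirs, with an SE more than 2 times as large. Such a size was not particular to the listed rows: mir-365a and mir-365b changed by -1.22 each and mir-589 by -1.18. These were picked, as told below, for likeness to mir-451a, and the others so picked, mir-122 and mir-378f, changed by -0.91 and -0.51. Of the 2 neighbour rows mir-16 fell (-0.26 ± 0.09, adjusted p = 0.0276 by edgeR) and mir-181a did not pass (-0.26 ± 0.11, adjusted p = 0.0713), and their values resembled that of mir-144. The mir-16 row gathers 2 loci, only 1 of which neighbours each of mir-15a and mir-15b.

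The log2 ratio of assisted hairpin to neighbour changed by -1.49 ± 0.47 (SD, n = 8) for mir-15a over mir-16, by -0.78 ± 0.34 for mir-15b over mir-16 and by -1.07 ± 0.25 for mir-181b over mir-181a, each lower in 8 of 8 clones. The change of -0.89 ± 0.93 for mir-451a over mir-144 lay within this range with about 2 to 4 times the spread.

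In the deletion under control shRNAs 2 of the 3 assisted rows fell, beside 38 of 536 rows (7.09%) over all: mir-15b was lower by -0.94 ± 0.17 (SE, adjusted p = 0.00796 by edgeR) and mir-181b by -0.79 ± 0.22 (adjusted p = 0.0226), while mir-15a did not pass (-0.19 ± 0.25). Differences between these rows were not tested. The interval of mir-451a, -1.22 to 1.16, contains the values of all 3 rows.

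**Figure D4:**
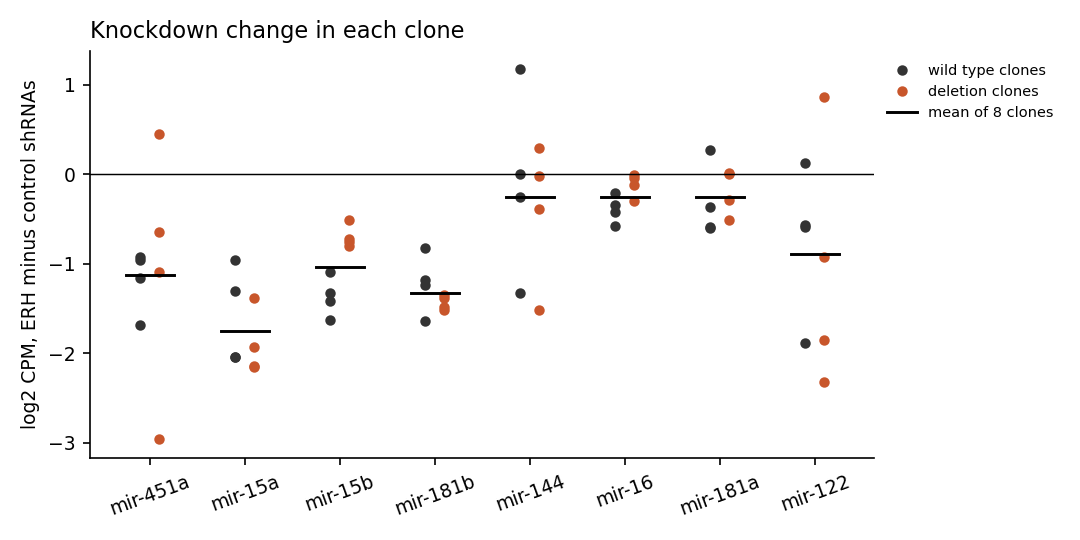
Change in log2 CPM under ERH knockdown (vertical axis) in each clone for mir-451a, the assisted hairpins mir-15a, mir-15b and mir-181b, the neighbours mir-144, mir-16 and mir-181a, and mir-122. Bars are means of 8 clones; mir-451a spreads from -2.96 to 0.45, while every clone is below 0 for mir-15a, mir-15b and mir-181b.

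Over the 16 sums, the row whose log2 CPM was most like that of mir-451a was not its helper but mir-122, a miRNA that liver cells make in large amounts and that is also found in blood serum. Pearson's r, given as a description over 16 sums that share clones and scaling, was 0.89 for mir-122, followed by mir-365b and mir-365a (both 0.79, 2 rows with nearly the same counts), mir-378f (0.76) and mir-589 (0.72). With mir-144 it was 0.60, 14th in the order of 367 rows. Within the 8 control sums r between mir-451a and mir-122 was 0.96, and within the 8 ERH sums 0.68. Among rows with a mean of at least 10 CPM, those most like mir-144 were mir-338 (0.61), mir-29b (0.60), mir-660 (0.60), mir-29a (0.57) and mir-424 (0.55). With its mean of 9.56 CPM mir-451a was just under that minimum; its r of 0.60 would have placed it 4th.

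Since mir-122 was chosen for its likeness over these same sums, its values are a description and support nothing. Under control shRNAs clone 34 was highest in both rows (622 CPM of mir-122) and clone 43 lowest in both (83.3 CPM). Under ERH shRNAs the extremes fell in different clones: mir-122 was highest in clone 67 (447 CPM) and lowest in clone 30 (72.1 CPM), mir-451a highest in clone 42 (10.1 CPM) and lowest in clone 34 (3.21 CPM). mir-122 also fell under knockdown in all clones (-0.91 ± 0.25 SE, adjusted p = 0.00729 by edgeR), in 6 of 8 clones. It rose in clone 43 (0.86), the only clone in which mir-451a rose, and was higher by 0.12 in clone 67. The log2 ratio of mir-451a to mir-122 changed by -0.27 ± 0.61 (SD, n = 8) and was lower in 5 of 8 clones. The change was -0.51 ± 0.54 (SD) in the 4 wild-type clones and -0.04 ± 0.65 in the 4 deletion clones. The culture medium held 7.5% FCS per the labels, and whether reads of these rows came from the cells or from serum was not tested.

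A list of rows known from blood cells was set beside the pair: mir-486, abundant in red blood cells, mir-223 of myeloid cells, mir-142 of blood cells in general and mir-150 of lymphocytes. All 4 were detected in every group, and their summed level ran from 297 to 437 CPM in wild-type control sums, from 165 to 488 CPM in wild-type ERH sums, from 245 to 2438 CPM in deletion control sums and from 245 to 1192 CPM in deletion ERH sums. Clone 30 was highest in both deletion groups. In the deletion under control shRNAs 1 of the 4 rows rose, beside 101 of 536 rows (18.8%) over all. This was mir-223 (2.33 ± 0.74 SE, adjusted p = 0.0381 by edgeR), with 1273 of its 1927 counts in deletion control sums from clone 30. The other rows did not pass: mir-142 gave 1.68 ± 0.60 (adjusted p = 0.0557). Means in wild-type and deletion clones were 78.4 and 109 CPM for mir-486 and 2.36 and 2.47 CPM for mir-150. In this comparison mir-451a did not differ beyond its error. Under knockdown in all clones 1 of the 4 rows fell, beside 16.5% of all rows, namely mir-142 (-0.56 ± 0.18, adjusted p = 0.0194), while mir-486 gave -0.12 ± 0.17, mir-223 -0.54 ± 0.22 and mir-150 -0.25 ± 0.43. Clones 30 and 34 stood highest in mir-223 and mir-142 in the control sums. In the ERH sums clone 34 did not (mir-142 at 236 CPM, beside 375 CPM in clone 55). Leaving out clones 30 and 34, a choice made after seeing the data, gave -0.88 (adjusted p = 0.0297 by edgeR) for mir-451a in the remaining clones. In the 2 remaining deletion clones it gave -0.19 (adjusted p = 0.840), and for the combined state against wild type -0.93 (adjusted p = 0.232), which no longer passed.

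Over the 8 control sums the log2 CPM of mir-451a and mir-144 had a Pearson r of 0.66 (permutation p = 0.0752, Spearman's rho 0.79 with permutation p = 0.0279), and r was 0.56 without clones 34 and 43, the farthest from the median. Over the 8 ERH sums r was 0.46 (permutation p = 0.242). With the blood cell rows mir-451a had r from 0.12 to 0.29 in control sums and from -0.29 to 0.42 in ERH sums. None of the 10 relations passed, the lowest adjusted p of r being 0.754 (Benjamini-Hochberg over permutation p-values). All 9 kidney and epithelial rows (mir-10a, mir-10b, mir-192, mir-194, mir-30a, mir-200b, mir-200c, mir-141 and mir-429) had at least 1 count in every group. Their summed levels were 23336 to 95831 CPM per clone and arm and came mainly from mir-10a, mir-10b and mir-30a. The 4 blood cell rows were likewise detected in every group, and 1284 of the 1513 rows had a count over all libraries. Detection therefore cannot check the labelled kidney epithelial line. The rows mir-200b and mir-429 were near the floor, with 17 and 4 counts in all deletion ERH sums. Under knockdown in all clones 7 of these 9 rows fell and 0 rose, with a median log2 fold change of -0.41, beside 16.5% of all rows that fell, 20.1% that rose and a median of 0.06. Their mean changes in log2 CPM over the 8 clones ran from -1.95 for mir-192 to 0.03 for mir-200c. With spike-in scaling 22 of all 667 rows fell in place of 110.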

How the data were processed

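Small RNA libraries (QIAseq miRNA kit, 400 ng of total RNA plus 4 spike-in RNAs, 100 ng used) were deposited as 1 table of read counts, labelled total read count per precursor in the file header. SAMtools is named in the submitters' processing notes; the aligner, annotation, build, trimming and use of molecular identifiers are not given in the sources used here. Each row holds both arms of a hairpin. 0 columns were left without a sample.

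Libraries held 1318923 to 6222790 miRNA counts and 9139 to 33090 spike-in counts. Within a group of the same genotype and vector no library copied another (chi-square per degree of freedom at least 75.4 in 48 pairs). Pairs across groups were not compared. Counts were summed over the 2 vectors of an arm per clone. The samples share a number because they come from the same clone, which the labels also name as batch; control and ERH deviations correlated at 0.35 to 0.63 in the 8 clones. Tests were edgeR 4.0.16 (R 4.3.3; glmQLFTest, filterByExpr with a minimum count of 10, TMM, Benjamini-Hochberg over all tested rows, threshold 0.05), with clone as a block for knockdown. CPM is TMM-scaled; log2 CPM adds a prior count of 2. Ratios were tested by exact permutation (70 arrangements or 256 sign flips; scipy 1.17.1) and correlations by permutation. DESeq2 1.42.0, spike-in and total scaling, no filter, no block, single vectors and leaving out clones were alternatives. Code was tested on simulated data.

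The 2 hairpins and all lists were chosen with earlier results of these data known. Rows named as alike were the 5 with the highest r among rows with a mean of at least 10 CPM. Hairpin positions are from GENCODE release 29, sequences from RefSeq. For knockdown, with clone as a block, p-values rest on how the change within a clone varied between clones, with counting and library error included. For comparisons between genotypes they rest on the spread of levels between the clones of a genotype.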

Additional observations from a re-analysis of the deposited data

Results flagged for a closer look

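Within groups of 4 clones, 4 values among the 30 groups checked stood apart, by a gap to the nearest clone that exceeded Dixon's 95% limit for the group's range; chance alone gives such a gap in about 1 in 20 groups. All 4 lay in deletion clones under ERH shRNAs. For mir-451a clone 42 had 10.1 CPM, with the next clone at 3.77 CPM. For mir-486 the same clone had 260.9 CPM against 89.9 CPM for the next. For mir-223 clone 30 had 111 CPM against 24.5 CPM, and for mir-142 clone 30 had 1019 CPM against 258 CPM.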

How the results depend on the processing

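Values are log2 fold changes by edgeR or, for the ratio, log2 differences, and where a call or direction changed the cause was not tested unless named. The fall of mir-451a in all clones kept its direction in every alternative run and lost its call with spike-in scaling (-0.72) and with the first vectors alone (-1.19). In wild-type clones the call was lost with spike-in scaling (-0.60), without the replicate block (-1.22) and with the first (-1.05) or second vectors alone (-1.55). In deletion clones it passed without the count filter (-1.20). The combined state lost its call with spike-in (-0.81) and total scaling (-0.82), with the first vectors (-1.04) and without clones 30 and 34 (-0.93). ERH shRNA 1 passed with DESeq2 (-1.29) and without the filter (-1.16), and ERH shRNA 2 did not pass with spike-in scaling (-1.06).

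Signs of uncalled values changed as follows. With spike-in scaling mir-144 gave 0.15 in all clones, 0.50 in wild-type clones, 0.40 for the deletion under control shRNAs and 0.20 for the combined state, and mir-451a gave 0.35 for that deletion contrast, -0.24 for the interaction and 0.069 between control vectors. With total scaling mir-144 gave 0.23 in wild-type clones, 0.40 and 0.038 for the deletion under control and ERH shRNAs and 0.12 for the combined state, and mir-451a gave 0.47, 0.092 and -0.11 for the deletion in each arm and the interaction. Without the filter mir-451a gave 0.010 for the deletion under control shRNAs and -0.013 for the interaction, and without the replicate block -0.13 for the interaction. The block changed no other call of either hairpin, while it moved the count of passing rows (all clones: 244 with it, 37 without). With the first vectors alone mir-144 gave 0.15, 0.17, 0.11, 0.10 and 0.23 for knockdown in all and in deletion clones, the deletion under ERH shRNAs, the interaction and the combined state, mir-451a gave 0.30, 0.056 and -0.50 for the deletion in each arm and the interaction, and the ratio gave 0.053 for the deletion under control shRNAs and -1.15 for the interaction. The ratio for the deletion under ERH shRNAs was 0.00027 with 1 added count, 0.013 with 5 added counts and 1.05 with the second vectors. This last value and the ratio interaction with the first vectors each include a library with 0 reads of a hairpin.

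Leaving out 1 clone at a time, mir-451a ranged from -1.38 to -0.93 in all clones, -1.33 to -0.96 in wild-type and -1.64 to -0.52 in deletion clones, -0.63 to 0.32 and -0.71 to 0.064 for the deletion under control and ERH shRNAs, -0.36 to 0.72 for the interaction, -1.84 to -1.10 for the combined state, -1.46 to -0.89 and -1.47 to -1.16 for the single vectors and -0.29 to 0.19 between control vectors. For mir-144 the same ranges were -0.52 to -0.10, -0.56 to 0.43, -0.70 to -0.06, -0.33 to 0.47, -0.55 to 0.026, -0.73 to 0.15, -0.71 to 0.15, 0.01 to 0.27, -1.30 to -0.47 and 0.17 to 0.52. The ratio ranged from -1.15 to -0.70 for knockdown, -0.73 to -0.04 and -0.28 to 0.38 for the deletion in each arm, -0.069 to 0.73 for the interaction, -1.40 to -0.74 for the combined state and -0.68 to 0.12 between control vectors.

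Over all alternatives the passing rows numbered 37 to 259 in all clones, 20 to 222 in wild-type and 13 to 119 in deletion clones, 35 to 177 and 0 to 8 for the deletion under control and ERH shRNAs, 0 to 35 for the interaction, 166 to 293 for the combined state, 52 to 254 and 29 to 155 for the single vectors, and 0 to 1 between control vectors. The share of calls that were higher rose with spike-in scaling from 66.7% to 93.9% in wild-type clones, from 41.5% to 83.3% in deletion clones and from 72.7% to 100% for the deletion under control shRNAs. The second vectors alone gave no value for mir-451a under the deletion with ERH shRNAs, because its counts did not pass the filter. Counts of 0 to 112 reads per library limit all values of both hairpins.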
